A study of Mus musculus with 14 samples.

Results

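Transcripts of 9 genes of the Toll-like receptor system were followed in 3 mouse tumour cell lines treated with an agonist of RIG-I or with its control agonist. They are the receptors Tlr1, Tlr2, Tlr3, Tlr4, Tlr6 and Tlr9, the co-receptor Cd14 and the adaptors Myd88 and Ticam1. All were taken by name from a list that was chosen with earlier results of these data known. They were matched to the count tables through the Ensembl identifier without its version, and all 9 of 9 were found among 34866 identifiers. CT26 is a colorectal carcinoma line from BALB/c mice, E0771 a mammary carcinoma line and MC38 a colon adenocarcinoma line, both from C57BL/6 mice. Cells were plated at 100000 per well, and received either agonist at 0.5 ug/ml for 24 h. CT26 has 3 libraries for each agonist, and the other lines have 2. No genetic change is labelled in any group, and both agonist groups of a line share the line, medium and time. E0771 and CT26 were grown in RPMI and MC38 in DMEM.

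Toll-like receptors are membrane proteins that recognise microbial molecules. Tlr3 and Tlr9 sit in endosomes and bind double-stranded RNA and CpG DNA, Tlr2 pairs with Tlr1 or Tlr6 at the cell surface to bind bacterial lipopeptides, and Tlr4 binds lipopolysaccharide with the help of Cd14. Myd88 carries the signal of all of these except Tlr3 to NF-kB, whereas Ticam1, also called TRIF, serves Tlr3 and internalised Tlr4 and leads to interferon genes. RIG-I is a separate, cytosolic sensor of viral RNA that needs neither adaptor.

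The 250 bases before each RefSeq start of the members were searched on both strands for the letters GAAA, any 2 bases and GAAA again, the core of the interferon-stimulated response element, for TTCNNNGAA, the GAS element bound by STAT dimers, and for the kappaB motif bound by NF-kB. The set of RefSeq windows used here covered 7 of the 9 genes, with none for Tlr4 or Cd14. The interferon element occurs in 2.98% of 32851 such windows of the genome, the GAS element in 7.02% and the kappaB motif in 7.25%. The 3 stretches below are shown because they hold the matches that lie outside annotated exons in members that rose in at least 1 line. They are RefSeq sequence of build GRCm38.p6 on the minus strand, with the matched letters in capitals. Those of Myd88 and Tlr2 were cut short before the first annotated exon base, and that of Tlr6 is the whole window.
Myd88, chr9:119340042-119340268: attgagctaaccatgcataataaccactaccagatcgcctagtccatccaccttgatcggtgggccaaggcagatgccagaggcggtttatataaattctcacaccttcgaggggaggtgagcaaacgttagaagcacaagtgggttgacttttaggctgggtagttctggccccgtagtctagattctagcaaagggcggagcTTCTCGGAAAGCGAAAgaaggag
Tlr6, chr5:64959167-64959416: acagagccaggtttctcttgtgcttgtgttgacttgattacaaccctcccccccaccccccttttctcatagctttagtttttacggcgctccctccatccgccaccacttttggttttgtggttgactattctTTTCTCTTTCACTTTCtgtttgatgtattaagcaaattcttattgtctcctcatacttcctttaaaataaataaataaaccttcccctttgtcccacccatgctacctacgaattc
Tlr2, chr3:83841768-83841858: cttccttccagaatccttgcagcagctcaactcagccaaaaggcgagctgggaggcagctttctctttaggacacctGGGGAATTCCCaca
In Myd88 the capitals hold a GAS match from -46 to -38 and, overlapping it, an interferon element match from -40 to -31, counted from the RefSeq start. In Tlr6 they hold 2 overlapping interferon element matches on the opposite strand, and in Tlr2 overlapping kappaB matches. Tlr6 has 2 RefSeq windows, and the one not printed, at the annotated 5′ end of the gene, held no match. The Myd88 and Tlr6 stretches lie inside the annotated span of their own gene, upstream of the RefSeq start, and the Tlr2 stretch lies just outside it. The Tlr3 window, which overlaps annotated exons and is not printed, held 1 kappaB match, GGGAGTTTCC at -211 to -202, and no match to the interferon element's letters. Ticam1 and Tlr9 windows held no match to any of the 3, and 1 Tlr1 window held a GAS match. A match describes letters in a window and not a bound site.

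CT26 libraries were the deepest, with 32826742 to 40564102 estimated counts each. E0771 libraries held 12413347 to 13399247 and MC38 libraries 12347361 to 18964563. Values below are CPM, the counts scaled by TMM-adjusted library size. A count of 0 in a library allows up to 3 counts, at most 0.091 CPM in CT26, 0.242 CPM in E0771 and 0.243 CPM in MC38. These limits cover counting error only. Replicates differed by more than sampling noise in every group (chi-square per degree of freedom of at least 2.26), and the labels do not say that they came from separate cultures, so p-values measure only how far these libraries spread, and that spread can be technical. Ifnb1, the interferon beta gene, was higher with the RIG-I agonist in each line, at 110 against 0.138 CPM in CT26, 13.7 against 0.0389 in E0771 and 3.52 against 0.0768 in MC38. Cxcl10, Ifit1 and Ddx58, read as further checks of the agonist, rose with it in every line. Adjusted p-values are Benjamini-Hochberg values of edgeR's quasi-likelihood test over all genes tested in a line.

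In CT26, 7 members had enough counts to be tested and 5 rose with the RIG-I agonist, where 19.8% of all 13893 genes tested rose and 18.6% fell (38.4% either way). In MC38, 6 were tested and 5 rose, where 18.9% of 12387 genes rose and 16.9% fell (35.8% either way). In E0771, 7 were tested and 2 rose, where 1.53% of 11728 genes rose and 0.0256% fell (1.56% either way). Libraries of the agonist groups did not overlap for 5 tested members in each line, where 51.4% of all genes tested did not overlap in CT26, 40.3% in E0771 and 67.2% in MC38. No tested member fell in any line. Tlr3 and Myd88 rose in all 3 lines, Cd14 and Ticam1 in CT26 and MC38, Tlr6 in CT26 and Tlr2 in MC38. Tested members had a median log2 fold change of 0.62 (CT26), 0.35 (E0771) and 0.77 (MC38), and the median of all genes tested was 0, -0.01 and 0 in the same order. Members that failed the filter on low counts are not in these counts. Tlr9 was tested in no line, Tlr1 only in CT26, Tlr2 not in CT26 and Tlr6 not in MC38.

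**Figure D1:**
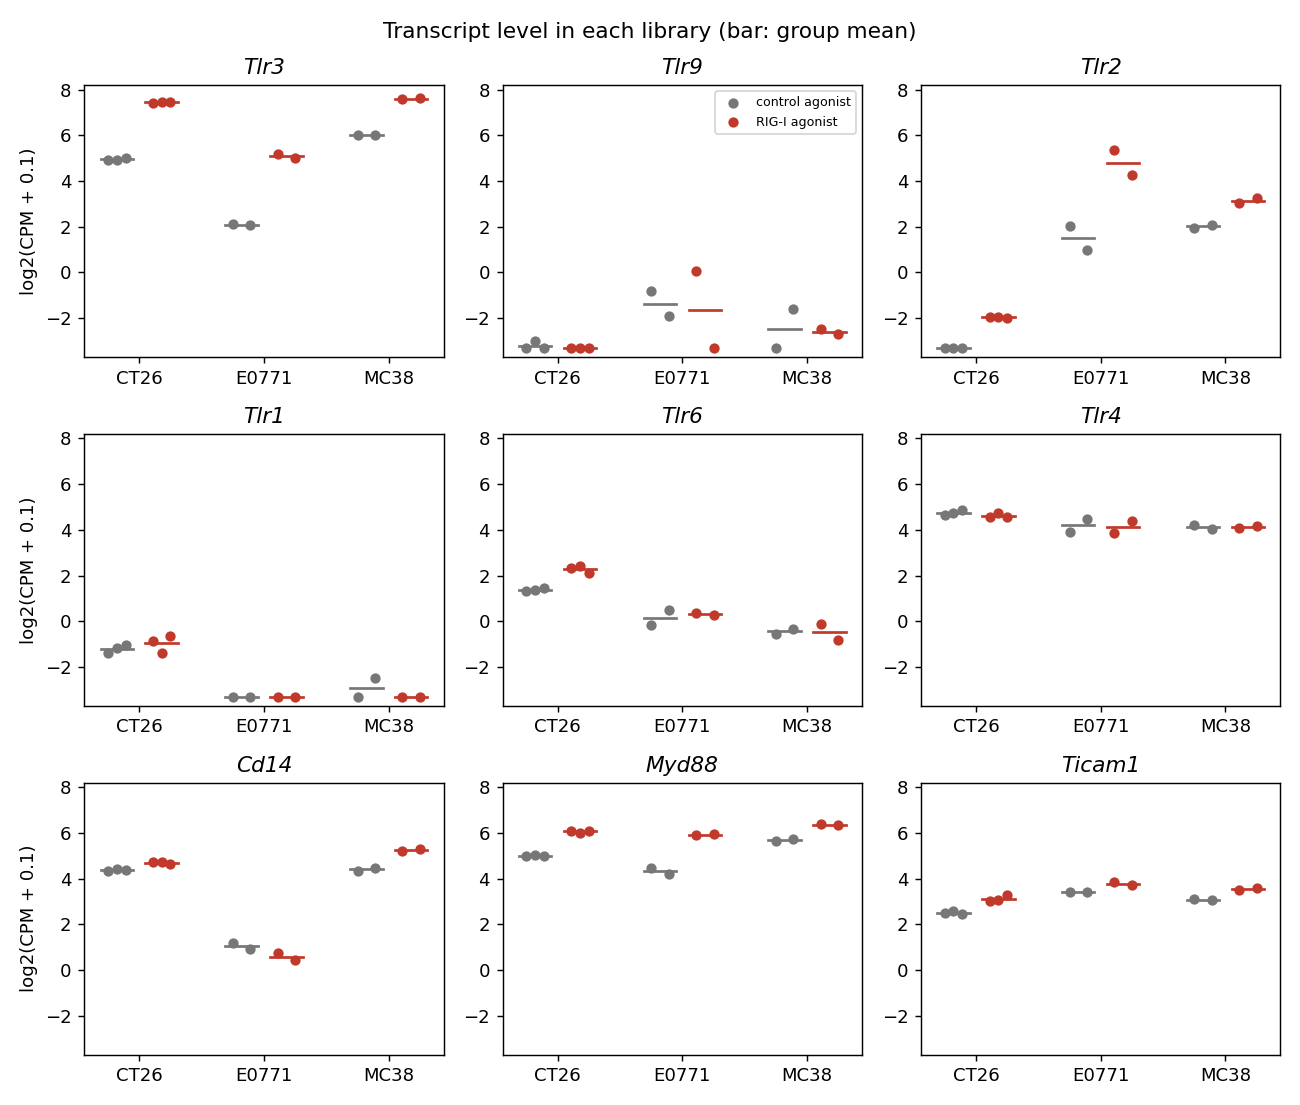
Each panel plots 1 gene and each point 1 library, on an axis of log2(CPM + 0.1), with control agonist in grey, RIG-I agonist in red and bars at the group means. Tlr3 and Myd88 libraries separate by agonist in every line, and Tlr4 libraries overlap in every line. Tlr1 and Tlr9, and Tlr2 in CT26, lie in the lower part of the axis, at 0.949 CPM or less.

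Tlr3 (ENSMUSG00000031639.12, chromosome 8, 45395665 to 45411080, GRCm38), the endosomal receptor of double-stranded RNA, showed the largest rise among the called members of each line. In CT26 its levels were 30.4, 29.7 and 32.1 CPM with control and 168, 174 and 176 CPM with RIG-I agonist, a 5.62-fold rise (log2 2.49, SE 0.06, adjusted p = 4.92e-13). In E0771 they were 4.2 and 4.11 CPM against 35.6 and 32.3 CPM, an 8.15-fold rise (log2 3.03, SE 0.18, adjusted p = 0.00469). In MC38 they were 63.8 and 64.6 CPM against 190 and 195 CPM, a 3-fold rise (log2 1.58, SE 0.04, adjusted p = 2.19e-17). The groups did not overlap in any line, and the line with the lowest control level, E0771, had the largest fold and the lowest level after it. An antisense gene, Gm45542, overlaps Tlr3 on the other strand. It was not among the genes counted, and whether the authors' counting used strand is not given in the sources used here.

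Tlr9 (ENSMUSG00000045322.10, chromosome 9, 106222598 to 106226883), the receptor of CpG DNA, was at or near the limit of detection. It had 1 count summed over the 6 CT26 libraries, 6, 2, 12 and 0 counts in the E0771 libraries (controls first) and 0, 3, 1 and 1 counts in those of MC38. Groups overlapped in each line, and a change was not detectable at this depth.

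Unc93b1, which carries Tlr3 and Tlr9 from the endoplasmic reticulum to endosomes, was almost without counts in CT26 and abundant in the other lines. It had 1, 3 and 2 counts in the CT26 control libraries and 4, 0 and 3 in the RIG-I libraries, under 0.2 CPM in each. The E0771 controls had 30.7 and 38.2 CPM and the MC38 controls 29.7 and 32.8 CPM. The fitted log2 difference of the control level was -9.12 (SE 0.27) for CT26 minus E0771 and -8.99 (SE 0.27) for CT26 minus MC38 (adjusted p = 7e-12 and 1.12e-11). E0771 and MC38 were not distinguishable (log2 difference 0.13, SE 0.17, adjusted p = 0.514). Unc93b1 rose with the agonist in E0771 to 74.2 and 77.5 CPM (log2 1.14, adjusted p = 0.0483), a call that was lost without control replicate 1 (adjusted p = 0.127) or RIG-I replicate 1 or 2 (0.0759 and 0.0839). It was at 33.4 and 32.4 CPM in MC38 with the agonist (log2 0.07, adjusted p = 0.472). The response of E0771 minus that of MC38 was 1.05 (SE 0.23, adjusted p = 0.0348), which did not pass in 7 of 14 fits that each left out 1 library (adjusted p from 0.0529 to 0.187). None of its 3056 distinct stretches of 31 bases occurs in a transcript of another gene, so its reads are not shared at that length. Line, mouse strain and the authors' quantification of each table cannot be told apart in this difference, so 0 to 4 counts in CT26 do not show that the transcript is absent.

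Tlr2 (ENSMUSG00000027995.10, chromosome 3, 83836272 to 83841767), the shared partner of Tlr1 and Tlr6, had no count in the 3 CT26 control libraries and 6, 6 and 5 counts in the RIG-I libraries. That is at least 5.93-fold higher, taking 3 counts over the control group as its limit, but the gene failed the filter on low counts. Without that filter it was called higher (adjusted p = 0.0013). In E0771 it was at 3.97 and 1.89 CPM with control and 40.4 and 19.2 CPM with RIG-I agonist. The groups did not overlap, but replicate 1 was well above replicate 2 in each group, and the 10.1-fold difference missed the threshold (log2 3.34, SE 0.53, adjusted p = 0.0687). It passed with DESeq2 (adjusted p = 2.55e-09), with the spread of all 14 libraries (0.000188) and without RIG-I replicate 2 (log2 3.77, adjusted p = 0.0165). In MC38 Tlr2 rose from 3.8 and 4.07 CPM to 7.98 and 9.31 CPM (log2 1.15, SE 0.17, adjusted p = 2.06e-05), but not with the spread of all 14 libraries (adjusted p = 0.0976). Here and below, that setting is 1 fit of all 14 libraries, whose filter and TMM scaling also span all lines.

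Tlr1 (ENSMUSG00000044827.10) and Tlr6 (ENSMUSG00000051498.6), the alternative partners of Tlr2, are neighbours on chromosome 5 at 64924679 to 64933563 and 64952031 to 64960097. Their transcripts share sequence: 20.02% of the distinct 31-base stretches of Tlr1 and 16.61% of those of Tlr6 occur in another gene, mostly in each other, so the division of reads between them is uncertain. In CT26 Tlr6 rose from 2.42, 2.48 and 2.63 CPM to 4.91, 5.28 and 4.27 CPM (log2 0.94, SE 0.14, adjusted p = 0.000129). Tlr1 was at 0.339 ± 0.057 and 0.426 ± 0.131 CPM there (SD, n = 3, adjusted p = 0.527), and its groups overlapped. Summed over both genes, which no division of reads between them can change, the CT26 controls had 2.7, 2.83 and 3.02 CPM and the RIG-I libraries 5.36, 5.56 and 4.81 CPM. In E0771, Tlr6 was at 0.779 and 1.32 CPM against 1.19 and 1.1 CPM (log2 0.13, SE 0.51, adjusted p = 0.963) and Tlr1 had no count. In MC38, Tlr6 had 9 or 10 counts in every library and Tlr1 had 1 count summed over all 4.

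Tlr4 (ENSMUSG00000039005.13, chromosome 4, 66827584 to 66930284), the lipopolysaccharide receptor, was expressed in all 3 lines and was the tested member with the smallest estimated change in each. It was at 25.1, 26.4 and 29.1 CPM against 23.4, 26.3 and 23.3 CPM in CT26 (log2 -0.14, SE 0.08, adjusted p = 0.167). In E0771 it was at 14.7 and 22.4 against 14.2 and 21 CPM (-0.07, SE 0.3, adjusted p = 0.964), and in MC38 at 18.3 and 16.4 against 16.7 and 17.8 CPM (-0.01, SE 0.1, adjusted p = 0.96). Groups overlapped in every line, and the sign in E0771 and MC38 turned when single libraries were left out. Without control replicate 1, Tlr4 was called lower in CT26 (log2 -0.19, adjusted p = 0.0464). Ly96, which encodes the MD-2 subunit that holds the lipid for Tlr4, was at 1.86 and 2.67 CPM in CT26 (log2 0.52, adjusted p = 0.0315), a call lost with DESeq2 (adjusted p = 0.118) and in 5 of 6 fits that each left out 1 library. It did not pass in E0771 or MC38 (log2 -0.13 and 0.07).

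Cd14 (ENSMUSG00000051439.6, chromosome 18, 36725067 to 36726798), which hands lipopolysaccharide to Tlr4 and also assists other receptors, was called in CT26 and MC38 and not in E0771. In CT26 it rose from 20, 21.6 and 20.9 CPM to 26.1, 26.1 and 25 CPM (log2 0.31, SE 0.07, adjusted p = 0.00253). In MC38 it rose from 20.3 and 21.9 CPM to 37.2 and 38.7 CPM (log2 0.86, SE 0.08, adjusted p = 1.36e-08). In E0771 it was low, with 28 and 22 counts against 20 and 17, or 2.18 and 1.81 against 1.58 and 1.25 CPM (log2 -0.5, SE 0.42, adjusted p = 0.796). The E0771 groups did not overlap, as was so for 40.3% of all genes tested in that line.

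Myd88 (ENSMUSG00000032508.8, chromosome 9, 119335934 to 119341411), whose 5′ stretch with the GAS and interferon element letters is printed above, rose in every line without overlap of the groups. In CT26 it went from 32.1, 33 and 31.2 CPM to 68.3, 63.7 and 68.3 CPM (log2 1.06, SE 0.06, adjusted p = 8.24e-09). In E0771 it went from 21.8 and 18.5 CPM to 59.6 and 61.2 CPM, a 3-fold rise (log2 1.58, SE 0.15, adjusted p = 0.0138). In MC38 it went from 50 and 52.8 CPM to 82.7 and 81.4 CPM (log2 0.67, SE 0.05, adjusted p = 2.38e-09). The control levels of the 3 lines spanned 18.5 to 52.8 CPM and the RIG-I levels 59.6 to 82.7 CPM. Exons of the neighbouring gene Acaa1a overlap the Myd88 locus on the other strand.

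Ticam1 (ENSMUSG00000047123.8, chromosome 17, 56269319 to 56276786), the adaptor of Tlr3, changed less than Tlr3 did. In CT26 it rose from 5.61, 5.81 and 5.44 CPM to 8.01, 8.17 and 9.74 CPM (log2 0.62, SE 0.1, adjusted p = 0.000425). In MC38 it rose from 8.43 and 8.22 CPM to 11.4 and 12 CPM (log2 0.49, SE 0.13, adjusted p = 0.00492), but not with DESeq2 (adjusted p = 0.193) or without RIG-I replicate 2 (0.0533). In E0771 it was at 10.7 and 10.6 against 14.2 and 13 CPM, without overlap but short of the threshold (log2 0.35, SE 0.19, adjusted p = 0.627). The other adaptors did not pass in any line. Tirap, which bridges Myd88 to Tlr2 and Tlr4, was at log2 0.03 in CT26, 0.25 in E0771 and 0.04 in MC38. Ticam2, the bridge of Ticam1 to Tlr4, was under 0.1 CPM on average in each group. Sarm1, an inhibitory adaptor, was tested only in E0771 (log2 -0.15, adjusted p = 0.952).

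**Figure D2:**
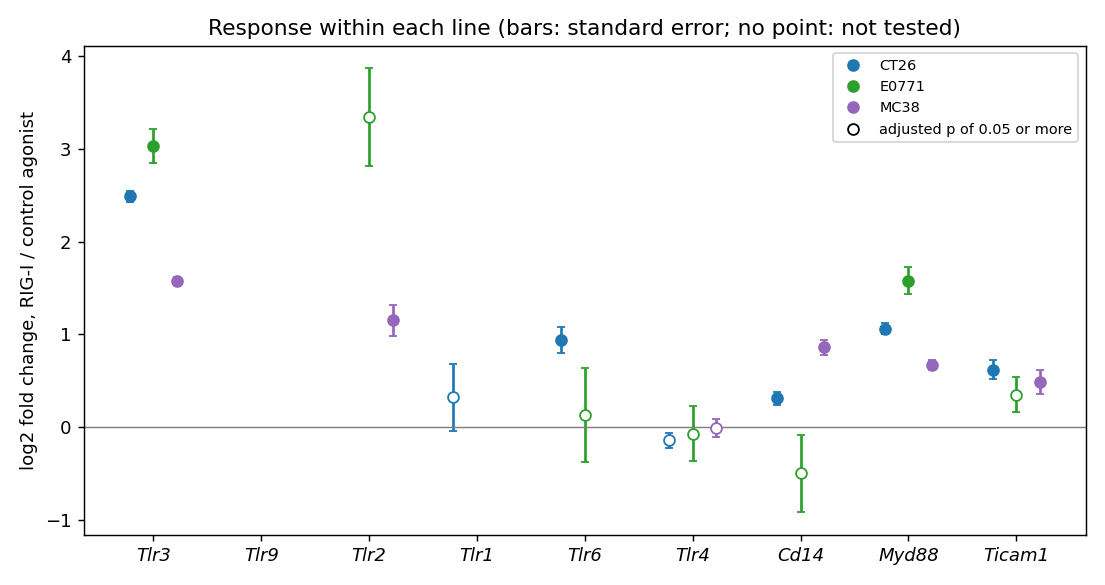
Log2 fold change of each tested member, RIG-I over control agonist, within each line, with standard errors. Filled points passed the adjusted p threshold. Tlr3 is at 2.49, 3.03 and 1.58 and Tlr4 lies near 0 in CT26, E0771 and MC38, and Tlr2 in E0771 carries the widest error bar.

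The responses of the lines were then compared with each other in 1 fit of all 14 libraries, which shares 1 spread and tested 7 members. Tlr3 responded more in E0771 than in MC38 (log2 difference 1.43, SE 0.12, adjusted p = 2.14e-05), more in CT26 than in MC38 (0.86, SE 0.09, adjusted p = 0.000152) and less in CT26 than in E0771 (-0.58, SE 0.11, adjusted p = 0.0125). Myd88 responded more in E0771 than in MC38 (0.9, SE 0.12, adjusted p = 0.000939) and less in CT26 than in E0771 (-0.57, SE 0.11, adjusted p = 0.0103), while CT26 and MC38 did not pass (0.33, SE 0.1, adjusted p = 0.0969, and 0.0193 with DESeq2). Cd14 responded less in E0771 than in MC38 (-1.36, SE 0.21, adjusted p = 0.00326) and less in CT26 than in MC38 (-0.59, SE 0.13, adjusted p = 0.0219). Over all 14657 genes of that fit, 3.88%, 3.8% and 2.11% were called in either direction for CT26 against E0771, CT26 against MC38 and E0771 against MC38. The common dispersion, the squared variation between replicates, was 0.041 in E0771 alone and 0.000927 in MC38 alone, and the shared value was 0.0149. The differences of CT26 from E0771 did not pass without single E0771 control libraries, and that of Cd14 between CT26 and MC38 did not pass in 8 of 14 fits that each left out 1 library. The Cd14 difference between E0771 and MC38 did not pass without E0771 control replicate 1. Higher responses were called for 1.06%, 1.98% and 1.81% of genes and lower ones for 2.81%, 1.82% and 0.3%, in the same order of lines. Tlr4, Tlr6, Tlr2 and Ticam1 passed in none of the 3 comparisons. Cd14 did not pass for CT26 minus E0771 (0.77, SE 0.2, adjusted p = 0.155). For Tlr2, E0771 minus MC38 was 2.18 (SE 0.52, adjusted p = 0.0652), which passed with DESeq2 (adjusted p = 0.0152) and without E0771 control replicate 1 (0.0197) or E0771 RIG-I replicate 2 (0.00486). Its differences from CT26 rest on control libraries with no count there. They were fitted at 1.62 (SE 1.03, adjusted p = 0.486) against E0771 and 3.8 (SE 1.28, adjusted p = 0.134) against MC38, and the latter passed without E0771 RIG-I replicate 1 (0.0333) or 2 (0.0357). For Tlr4 the differences were -0.11 (SE 0.25), -0.18 (SE 0.25) and -0.07 (SE 0.28), and for Ticam1 0.23 (SE 0.17), 0.08 (SE 0.17) and -0.15 (SE 0.19), in the order of the lines just given.

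With control agonist, the lines differed in 7 of 7 tested members between CT26 and E0771, 6 of 7 between CT26 and MC38 and 4 of 7 between E0771 and MC38, where 70.3%, 73.6% and 64.1% of all genes did. Of these members 5, 2 and 1 were higher in the line named first, where 37.2%, 37.8% and 31.5% of all genes were, and 2, 4 and 3 were lower, where 33.1%, 35.8% and 32.6% of all genes were. CT26 and E0771 share their medium, and E0771 and MC38 share their mouse strain. Within a pair, line, whichever of strain and medium differs and any difference in sequencing cannot be told apart. Column headers of E0771 and MC38 share a prefix that those of CT26 lack, and its meaning is not given. Tlr3 and Myd88 were highest in MC38, then CT26, then E0771, and each step passed. The Tlr3 level of MC38 was 15.5-fold that of E0771 (log2 difference of E0771 from MC38 -3.96, SE 0.09, adjusted p = 3.83e-12). Cd14 in CT26 and MC38 differed by a log2 value of 0.08 (SE 0.09, adjusted p = 0.414). CT26 minus E0771 was 3.49 and E0771 minus MC38 was -3.41 for Cd14, both called. Tlr4 and Tlr6 were highest in CT26, with E0771 and MC38 not distinguishable (adjusted p = 0.737 and 0.144). For Tlr4, CT26 and E0771 did not pass without E0771 control replicate 1 (log2 0.37, adjusted p = 0.0872). Ticam1 was lowest in CT26, and its higher level in E0771 than in MC38 (log2 0.35, adjusted p = 0.0414) did not pass with RLE scaling, without the filter, with DESeq2, with the replicate block or in 8 of 14 fits that left out 1 library. Tlr2 was not detected in CT26 controls, where 3 counts over the group are 0.0262 CPM, and did not differ between E0771 and MC38 beyond its error (log2 -0.43, SE 0.4, adjusted p = 0.365).

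Levels of different genes were compared per kb of exon. With control agonist Myd88 had the highest mean in each line, at 12.5 CPM per kb in CT26, 7.82 in E0771 and 20 in MC38. In CT26 Cd14, at 12 CPM per kb, overlapped it, with 11.5, 12.5 and 12.1 against 12.5, 12.8 and 12.1 for Myd88. Cd14 was at 1.15 in E0771 and 12.2 in MC38. Tlr3 was at 5.91, 0.798 and 12.3 CPM per kb and Ticam1 at 1.88, 3.57 and 2.78. With RIG-I agonist Tlr3 was the highest in CT26 (33.2) and MC38 (36.9), above Myd88 (25.9 and 31.8), while in E0771 Myd88 (23.4) stayed above Tlr2 (9.89) and Tlr3 (6.52). Tlr4 was at 3.1 to 4.83 CPM per kb in all 6 groups. Tlr1 and Tlr9 were under 0.2 CPM per kb in each.

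**Figure D3:**
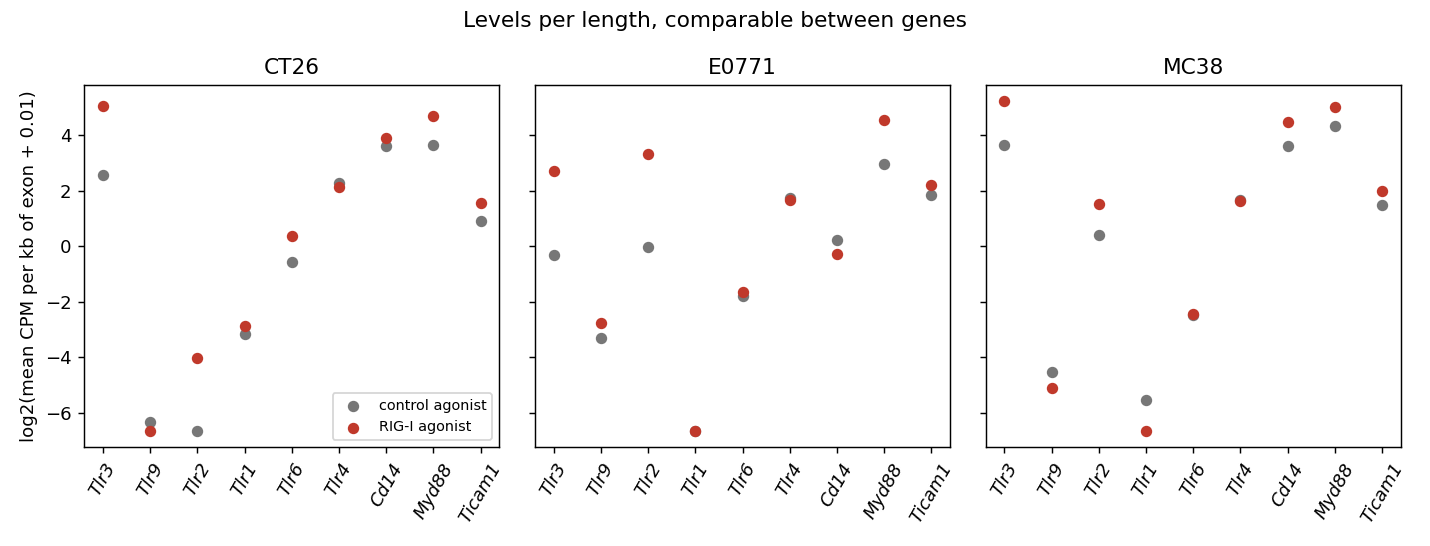
Mean level of each gene per kb of exon in each line, on an axis of log2(CPM per kb + 0.01), with control agonist in grey and RIG-I agonist in red. With RIG-I agonist Tlr3 is highest in CT26 (33.2) and MC38 (36.9) and Myd88 in E0771 (23.4).

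Genes of the rest of the pathway were counted by role, and the shares of all genes called in each line, given above, are the background of these counts. Of 13 co-receptor, chaperone and protease genes, 8 were tested in each line. In CT26 3 rose and 2 fell, in E0771 1 rose, and in MC38 2 rose and 1 fell, with medians of 0.14, -0.09 and 0.02 (log2). The 5 called in CT26 and 3 in MC38 stand beside 38.4% and 35.8% of all genes called either way. Ctss, a protease that cuts endosomal receptors, rose from low levels in CT26 (0.0422 to 0.872 CPM, log2 4.22) and MC38 (0.405 to 2.67 CPM, log2 2.65). In neither line would its control libraries alone have met the filter on low counts, so being tested depended on its rise. Slc15a4, an endolysosomal transporter used by Tlr9, rose by 0.37 in CT26. The chaperone gene Hsp90b1 fell by 0.2 in CT26 and was called higher by 0.09 in MC38. The protease gene Lgmn fell by 0.26 in CT26 and by 0.19 in MC38. Both MC38 calls were lost with the spread of all 14 libraries (adjusted p = 0.645 and 0.176). Of 6 other Toll-like receptors, only Tlr5, the flagellin receptor, was tested, in E0771 (log2 -0.03, adjusted p = 0.99).

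Of 20 kinases and ubiquitin ligases downstream, 20 were tested in CT26 and 19 in each of the others. In CT26 8 rose and 2 fell, with a median log2 fold change of 0.13, where 19.8% and 18.6% of all genes rose and fell. Map3k8, a kinase of the MAP kinase cascade, rose by 1.36, the ubiquitin ligase gene Peli1 by 0.6 and the kinase gene Ripk1 by 0.39. In MC38 3 rose and 2 fell, where 18.9% and 16.9% of all genes did, with the median at 0.04, and in E0771 none passed (median 0.21). Traf6, the ligase that Myd88 reaches through Irak kinases, rose by 0.35 in MC38. In CT26 it was called higher by 0.18 (adjusted p = 0.0476), a call lost in 5 of 6 fits that each left out 1 library and with DESeq2 (adjusted p = 0.104). Irak2 was at log2 0.34 in CT26 (adjusted p = 0.0123, and 0.113 with the spread of all 14 libraries), 0.65 in E0771 (adjusted p = 0.317, and 0.0195 with the spread of all 14 libraries) and -0.02 in MC38. In MC38 Irak1 was called lower (-0.17) and Tab2 higher (0.24), and neither passed with the spread of all 14 libraries (adjusted p = 0.403 and 0.197).

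Of 10 inhibitor genes, 8 were tested in each line. In CT26 3 rose and 1 fell, in MC38 5 rose, and in E0771 1 rose, with medians of 0.09, 0.26 and 0.37 (log2). Nfkbia, which holds NF-kB in the cytoplasm, rose by 2.1 in CT26 and 0.32 in MC38 and was at 2.21 in E0771 (adjusted p = 0.0717). With the spread of all 14 libraries its MC38 call was lost (adjusted p = 0.459). Tnfaip3, which encodes the deubiquitinase A20, rose by 1.08 in CT26. Tnip1, a partner of A20, rose by 0.28 in CT26, 1.56 in E0771 and 0.26 in MC38, and its CT26 call was lost with the spread of all 14 libraries (adjusted p = 0.107). Cyld and Tank, a deubiquitinase gene and a gene of a TRAF-binding protein, rose by 0.39 and 0.31 in MC38, but not with that spread (adjusted p = 0.0624 and 0.0727). Irak3, an inhibitory kinase, was not tested. It had 1 and 12 counts in CT26 with control and RIG-I agonist, 1 and 0 in E0771 and none in MC38.

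The interleukin-1 receptor family uses Myd88 as well. In CT26 6 of 7 genes were tested, 3 rose and 2 fell. In MC38 4 were tested, 1 rose and 2 fell, and in E0771 3 were tested and none passed. The medians were 0.16, -0.12 and 0.5 (log2). Il1rl1, the receptor of interleukin-33, rose by 1.52 in CT26 (121 to 346 CPM) and 0.88 in MC38 (205 to 377 CPM). Il1r1, the interleukin-1 receptor, fell by 0.57 and 0.63 in the same lines, and Il1rap, its partner chain, fell by 0.25 in MC38 but was called higher by 0.2 in CT26 (adjusted p = 0.0462) and was at 0.5 in E0771 (adjusted p = 0.506). The MC38 calls of both genes were lost with DESeq2 (adjusted p = 0.0643 and 0.179). Il18r1 rose in CT26 (log2 1.57), a call lost with DESeq2 (adjusted p = 0.0878) and in 5 of 6 fits that each left out 1 library. Among the ligands, Il33 rose in CT26 from 0.0871 to 2.43 CPM (log2 4.74), and Il18 in E0771 from 0.398 to 5.16 CPM (log2 3.66, adjusted p = 0.0303), a call lost without any 1 of the 4 libraries (adjusted p from 0.0538 to 0.0986). For Il18r1 and Il33 in CT26 and Il18 in E0771, control libraries alone would not have met the filter, so being tested depended on the rise. Of 6 reported endogenous Toll-like receptor ligands, 3 were tested in CT26, 5 in E0771 and 2 in MC38. The proteoglycan gene Bgn was the 1 called, in CT26 (log2 0.32), and not with the spread of all 14 libraries (adjusted p = 0.324). Tnc in E0771 went from 12.5 to 33.4 CPM but missed the threshold (log2 1.42, adjusted p = 0.0687).

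**Figure D4:**
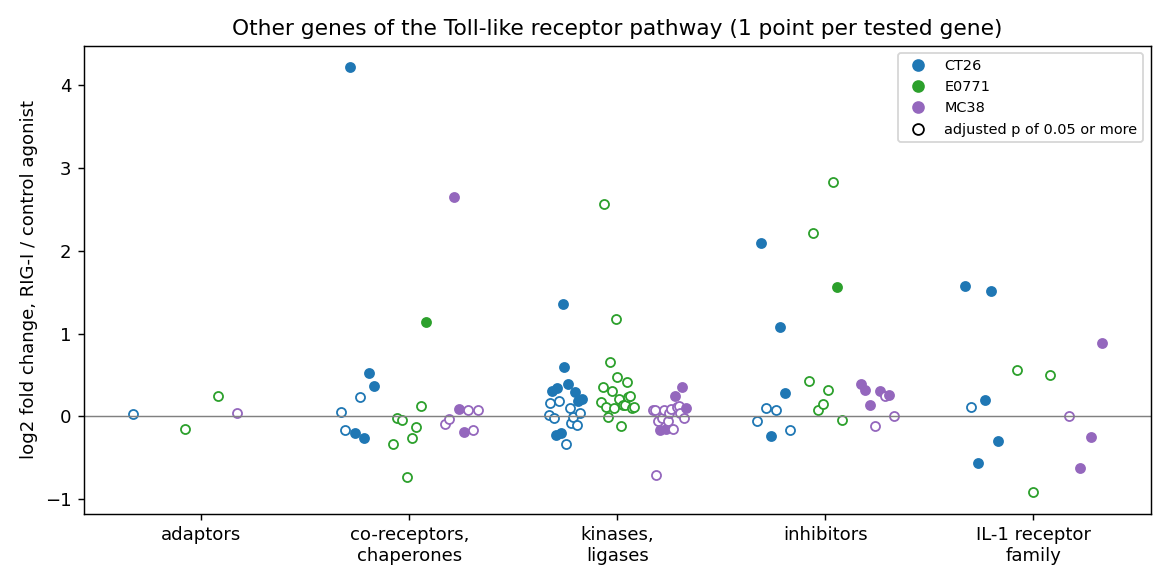
Each point is 1 tested gene of a pathway group, with its log2 fold change, RIG-I over control agonist, by line. Filled points passed the adjusted p threshold. Ctss in CT26 (4.22) and MC38 (2.65) lies far above the other co-receptor and chaperone genes, and its control libraries alone would not have met the filter. Open E0771 points such as Tnfaip3 (2.83) show large differences that did not pass.

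Cells such as macrophages also carry these receptors, and markers of leukocytes were therefore read in the same libraries. Their summed level over 10 genes was 3.58 to 4.56 CPM with control and 4.87 to 5.63 CPM with RIG-I agonist in CT26, 13 to 17.5 and 10.8 to 17.6 CPM in E0771, and 6.99 to 7.34 and 5.05 to 5.7 CPM in MC38. Adgre1, which encodes F4/80, had no count in CT26 or E0771 and 2 in MC38. Ptprc, which encodes CD45, was at 0.571 CPM or less on average in every group. Cd68 and Lyz2 together made up most of the sum in every library. In E0771 Cd68 was at 7.24 and 3.12 CPM with control and 11.5 and 4.18 CPM with RIG-I agonist. It was higher in replicate 1 of each group, as Tlr2 was. Lyz2, at 9.03 and 9.54 against 4.19 and 5.64 CPM, was not. It had 116 and 116 counts in the controls and 53 and 77 with RIG-I agonist. Itgax (5 and 0 counts, then 9 and 3) and Csf1r (1 and 0, then 10 and 2) were higher in replicate 1 of each group, at few counts. Ptprc, Itgam, Fcgr1 and Cd79a were not higher in replicate 1 of both groups. Whether leukocytes contributed to the levels of the members was not tested. Of 4 markers tested in CT26, 1 rose, Fcgr1, from 2 to 41 counts, and none of the 2 tested in E0771 or in MC38 passed. The control libraries of Fcgr1 alone would not have met the filter. In bulk RNA, fewer cells with a transcript and less of it per cell cannot be told apart.

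The genes whose levels ran most like each member over the 14 libraries were found as the smallest root mean square difference of log2 CPM, each gene centred on its own mean. Libraries of a line share the line, its medium and its deposited table, so these values can mostly compare lines. Tlr3 ran most like Il15 (0.436) and Trim30b (0.477), against its own SD of 1.8. Myd88 ran most like Samhd1 (0.0917), a nuclease gene, and Trim26 (0.158), against 0.664. The nearest genes to Tlr2 were Il15ra (0.71) and Slpi (0.786), to Tlr4 Rnf166 (0.0977) and Hint1 (0.102), to Tlr6 Ly9 (0.272) and Cebpd (0.29), to Cd14 4930432K21Rik (0.351) and Otogl (0.356), and to Ticam1 Spty2d1 (0.0869) and Zfp36l1 (0.131).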

How the data were processed

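Stranded poly(A) libraries were made from 14 RNA samples, per the labels' protocols. The authors deposited gene-level estimated counts in 3 tables, a table for each line, and Salmon, DESeq2 and GRCm38 stand in the submitters' processing notes with no role given. The annotation and versions are not given in the sources used here. Estimated counts, of which 69.1% to 85.3% per library were exactly whole with no tolerance, were rounded. Symbols came from GENCODE M21, which named 34582 of 34866 identifiers, and Il36g is listed there as Il1f9. Each line was fitted alone with edgeR 4.0.16 in R 4.3.3 (quasi-likelihood, TMM, robust, filterByExpr at a minimum count of 10), and called at an adjusted p under 0.05. Standard errors were taken as the log2 fold change over the root of F. Lines were compared in 1 fit of 14 libraries. DESeq2 1.42.0, RLE scaling, no filter, no robust step, a replicate block and leaving out libraries were alternatives. Members and pathway lists were chosen with earlier results of these data known. All members were named. Of the other lists, the 3 called genes with the largest change per line and 9 fixed partners were named, and any further gene was chosen after its values were seen. Scripts were tested on simulated data. The simulated counts used the common dispersion of each line. Simulated log2 changes of 1, in either direction, were recovered for 31.2% of changed genes in E0771, 95.9% in CT26 and 97% in MC38. An E0771 gene that did not pass may thus have changed.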

Additional observations from a re-analysis of the deposited data

Results flagged for a closer look

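All 7 results here are members whose response to the RIG-I agonist differed between lines in edgeR's quasi-likelihood test of that difference, adjusted over 14657 genes. Tlr3 is flagged in every pair of lines, at a log2 difference of -0.58 for CT26 minus E0771, 0.86 for CT26 minus MC38 and 1.43 for E0771 minus MC38. The first of these lost its call without E0771 control replicate 1 (adjusted p = 0.054) or 2 (adjusted p = 0.0738). Myd88 is flagged at -0.57 for CT26 minus E0771, a call lost without E0771 control replicate 2 (adjusted p = 0.0505), and at 0.9 for E0771 minus MC38. Cd14 is flagged at -0.59 for CT26 minus MC38, which did not pass in 8 of 14 fits that each left out 1 library (adjusted p from 0.0557 to 0.126). It is also flagged at -1.36 for E0771 minus MC38, a call lost without E0771 control replicate 1 (adjusted p = 0.0688). The comparisons of a line share its control libraries. No group had enough libraries for a check of single outlying samples.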

How the results depend on the processing

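Under the settings that left all libraries in, CT26 calls of higher genes went from 2751 to 1520 with 1 fit of all 14 libraries. That fit shares the spread and also takes the filter and TMM scaling over all lines. In E0771, 180 higher genes became 370 with DESeq2, 949 with that fit and 1243 with the replicate block. The 3 lower genes became 45, 639 and 1215 in the same order, and 22 without the filter. In MC38, 2338 higher genes became 1156 with DESeq2 and 624 with that fit, and 2099 lower genes became 804 and 374. Responses called higher for CT26 minus E0771 went from 156 to 246 with DESeq2 and 479 with the replicate block, and lower ones from 412 to 1058 with the block. For CT26 minus MC38 they went from 290 to 480 and 785 and from 267 to 536 and 1031, and members called higher from 1 to 2 under both. For E0771 minus MC38, higher responses went from 265 to 627 with the block and lower ones from 44 to 117 with DESeq2 and 253 with the block. The 1 member called higher at control level for E0771 minus MC38 became 0 with RLE scaling, no filter, DESeq2 and the block. The causes were not tested. Signs turned for Tirap in CT26 (-0.02, fit of all 14 libraries) and Tlr4 in MC38 (0 with DESeq2, 0.01 without the filter). They also turned for Tlr2 and Tlr4 at control level for E0771 minus MC38 (0.08 and -0.26 with the block). Leaving out 1 library at a time, lower genes ranged from 2 to 8 in E0771, and members called lower in CT26 from 0 to 1. Responses called higher ranged from 86 to 251, 112 to 462 and 156 to 378 for CT26 minus E0771, CT26 minus MC38 and E0771 minus MC38, and lower ones from 263 to 614, 55 to 587 and 9 to 120. Log2 values that turned sign when single libraries were left out ranged, within E0771, from -0.38 to 0.26 for Tlr4, -0.2 to 0.55 for Tlr6, -0.67 to 0.26 for Ly96 and -0.63 to 0.21 for Sarm1, and within MC38 from -0.08 to 0.08 for Tlr4, -0.08 to 0.26 for Ly96 and -0.2 to 0.16 for Irak2. For differences in response they ranged from -0.45 to 0.22 for Tlr4 (CT26 minus E0771), -0.01 to 0.13 for Ticam1 and -0.41 to 0.74 for Unc93b1 (CT26 minus MC38), and -0.42 to 0.26 for Tlr4 and -0.25 to 0.56 for Tlr6 (E0771 minus MC38). At control level for E0771 minus MC38 they ranged from -1.05 to 0.01 for Tlr2, -0.25 to 0.37 for Tlr4 and -0.03 to 0.29 for Unc93b1. With the replicate block, Tlr2 and Irak2 in E0771 were called (adjusted p = 1.91e-09 and 0.00276), as were the Tlr2 responses of E0771 minus MC38 (0.000109) and CT26 minus MC38 (0.00972). Same-numbered libraries deviated together by correlations of 0.0924, 0.0842 and 0.262 in CT26, 0.639 in E0771 and -0.0179 in MC38, and the labels do not say what a number shares. In CT26 only number 3 correlated best with its own number. Tlr1, Tlr9 and CT26 Tlr2 are limited by depth.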
